A study of Mus musculus with 16 samples.

Results

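The comparison described here is the difference between the effect of a myeloid Sucnr1 knockout in visceral fat and its effect in subcutaneous fat, measured in mouse adipose tissue macrophages on Affymetrix arrays. It used all 16 of the 16 arrays of the series, 4 in each of 4 groups, and 17097 genes, each read from the probe set of highest mean. The control mice carried floxed Sucnr1 on both alleles (Sucnr1flox/flox, labelled WT), and the knockout mice (LysM-Sucnr1-/-, labelled KO-LysM) also carried a Cre driven by the lysozyme M promoter, which is active in myeloid cells. So every group carried the floxed or deleted gene, and Cre itself was present in the knockout groups only. From each genotype, cells were taken from subcutaneous adipose tissue (SAT) and visceral adipose tissue (VAT), and all 16 samples carry the label NCD, which is not spelled out. The mice were 19 to 21 weeks old, and their sex is not given in the labels.

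Each array was made from a pool. Pools 1 and 2 belonged to day 1 and pools 3 and 4 to day 2, so each group had 2 pools on each day. The number of mice in a pool is not given, and where pools shared animals the p-values measure only the spread between these samples. Cells were selected with CD11b beads, while another label calls them F4/80+, and RNA of 300000 cells was amplified for 24 cycles. 

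Succinate is an intermediate of the tricarboxylic acid cycle that also leaves cells and acts as a signal through SUCNR1, a G protein-coupled receptor found on macrophages and other cells. Macrophages of fat take up lipid and dead cells, present antigen and release chemokines, and their gene programmes are known to differ between subcutaneous and visceral depots. Fat depots also keep a positional code of homeobox and T-box genes in their stromal and fat cells, so that such genes mark where a tissue sample was taken.

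Values are on the log2 scale of the deposited normalized arrays, where 1 unit is a doubling. The quantity tested for each gene, the interaction, was the knockout difference in VAT (KO VAT minus WT VAT) minus the knockout difference in SAT (KO SAT minus WT SAT). A positive interaction therefore means that the knockout difference was more positive in VAT than in SAT. It is the same number as the depot difference in knockout mice minus the depot difference in WT mice. A gene was called where the Benjamini-Hochberg adjusted p of limma's moderated test, over all genes, was under 0.05. A level under 4.78, the 95th percentile of the mean levels of 41 olfactory receptor genes, was taken as background, and 31.3% of genes were under it in all 4 groups. The size of a difference that involves a background level is inexact.

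The targeted gene did not check the labels. Sucnr1 had mean levels of 3.54 in WT SAT and 3.52 in WT VAT, against 3.55 in KO SAT and 3.53 in KO VAT, all under background, and its interaction was 0.01 ± 0.09 (SE; adjusted p = 0.985). Of the 20 measured core macrophage genes, 0 passed the interaction by limma, against 4.22% of all genes. By limma 6 of the 20 had an unadjusted p under 0.05, against 2290 of all 17097 genes, and 1 passed without WT VAT pool 1. The list's median interaction was -0.25, with 13 negative and 7 positive values. A count of 0 in so small a list does not show that these genes were unchanged. The mean level of the list ranged over arrays from 8.32 to 8.70 in WT SAT and 7.73 to 8.66 in WT VAT. It was 8.10 to 8.55 in KO SAT and 7.56 to 8.17 in KO VAT. Macrophage transcripts were thus well above background in every array. Lyz2, the lysozyme gene whose promoter drives the Cre, was at 11.12, 10.57, 10.48 and 9.99 in the same group order, with an interaction of 0.06 ± 0.20 (adjusted p = 0.958). The WT VAT arrays were the least alike, with within-group correlations from 0.942 to 0.990 against 0.986 or more in each of the other groups.

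The knockout effect differed between the depots for 722 genes, 4.22% of those tested. It was higher in VAT for 359 genes (2.1%) and lower in VAT for 363 (2.12%), and 377 of the 722 interactions were at least 2-fold. At an unadjusted p under 0.05 there were 2290 genes, and the median interaction over all genes was 0.02. The knockout difference itself passed for 6279 genes in SAT (36.7%; 2859 higher and 3420 lower) and for 2724 in VAT (15.9%; 1740 higher and 984 lower). With arrays centred on their medians these splits became 3259 to 2030 in SAT and 1798 to 534 in VAT, and with quantile normalization the VAT split became 1579 to 1506. With each array's spread of values as a term they were 270 to 1038 in SAT and 781 to 1068 in VAT, where the split turned towards lower. The sign of the interaction was the same on both days for 722 of the 722 genes and for 38.3% of all genes, a description only, since choosing genes over both days favours a shared sign. Tested within a day, 330 genes passed on day 1, 238 of them among the 722, and 1904 passed on day 2, 526 of them among the 722.

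The point estimates mostly crossed, while the commonest called form was a rise in SAT without a pass in VAT (238 genes). The point estimates of the knockout difference had opposite signs in the depots for 605 of the 722 genes (83.8%), against 20.5% of all genes, a description only, since choosing genes by the interaction favours opposite signs. Among the 359 higher genes, 99 fell in SAT and rose in VAT, 105 fell in SAT without passing in VAT, 150 rose in VAT without passing in SAT, and 5 rose in both. Among the 363 lower genes, 77 rose in SAT and fell in VAT, 238 rose in SAT without passing in VAT, 43 fell in VAT without passing in SAT, 2 rose in both and 3 passed in neither. Seen from the depots, 48 of the higher genes were lower in VAT than in SAT in WT mice and higher in VAT in knockout mice, and 52 of the lower genes did the opposite. The depot difference passed for 486 genes in WT mice (2.84%) and for 738 in knockout mice (4.32%).

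The levels of these genes grouped the arrays in a way that their depot labels do not. For 48 genes, 0.281% of those tested, all 8 arrays labelled WT SAT or KO VAT lay above all 8 labelled WT VAT or KO SAT, and for 30 genes (0.175%) all 8 lay below. Only 10 genes (0.0585%) had all 8 SAT arrays above all 8 VAT arrays, and 0 had them below. The depot difference averaged over the genotypes passed for 503 genes (2.94%), and 23 of these were as large as 1 unit. The interaction is a difference of differences, so its matching size is 2 units, which 100 of the 722 reached. If the depot labels of 1 genotype were exchanged, the interaction and the averaged depot difference would change places, apart from sign and a factor of 2, so a knockout effect that differs by depot and such an exchange cannot be told apart here. Everything below is therefore given for the groups as labelled.

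**Figure D1:**
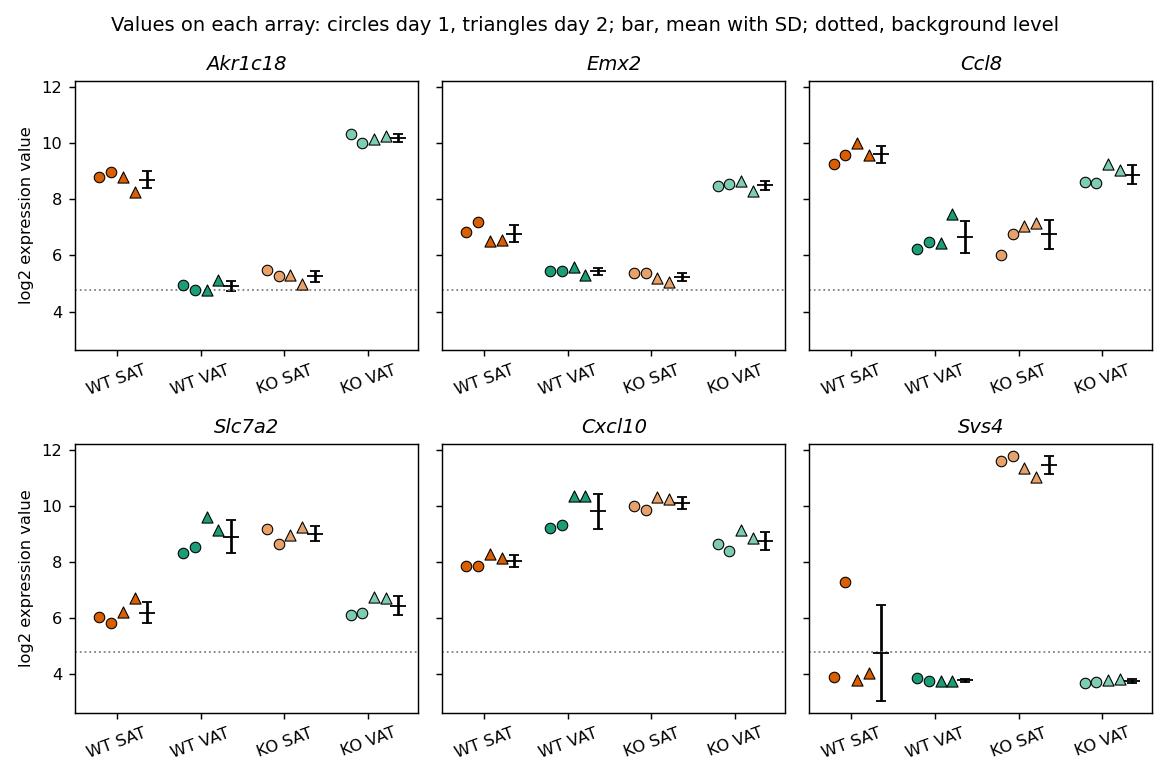
Log2 levels of 6 genes on each of the 16 arrays by group as labelled (circles day 1, triangles day 2), with the group mean and SD beside the points and the background level of 4.78 dotted. For Akr1c18, Ccl8 and Emx2 the WT SAT and KO VAT arrays lie above the WT VAT and KO SAT arrays, for Slc7a2 and Cxcl10 they lie below them, and Svs4 is high in the KO SAT arrays.

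Among single genes the largest positive interaction was that of Akr1c18, which encodes an aldo-keto reductase that inactivates progesterone (20-alpha-hydroxysteroid dehydrogenase). Its levels in pools 1 to 4 were 8.79, 8.99, 8.79 and 8.25 in WT SAT, and 4.96, 4.75, 4.79 and 5.14 in WT VAT. In knockout mice they were 5.47, 5.26, 5.30 and 4.99 in SAT, and 10.31, 9.99, 10.16 and 10.27 in VAT. WT SAT and KO VAT were high, WT VAT and KO SAT were low, and no array of a high group reached down to a low one. Akr1c18 fell 10.9-fold with the knockout in SAT and rose 38.7-fold in VAT, an interaction of 8.72 ± 0.21 (adjusted p = 1.58e-12). Of its measured neighbours in the Akr1c gene cluster, Akr1c14, Akr1c13, Akr1c19, Akr1c12 and Akr1c6, none passed the interaction.

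Adh7, an alcohol dehydrogenase that oxidizes retinol, followed it with 6.36 ± 0.22 (adjusted p = 9.47e-11): it fell 12.6-fold in SAT and rose 6.52-fold in VAT. Both genes belong to a list of 26 measured retinoid and Akr1c enzymes, of which 6 passed higher and 2 lower, with a median of 0.16. Cyp26b1, which degrades retinoic acid, had 1.92 ± 0.21 (adjusted p = 5.27e-05). Rdh10, which makes retinaldehyde from retinol, went the other way, with mean levels of 5.22 in WT SAT and 7.48 in WT VAT, against 8.20 in KO SAT and 6.70 in KO VAT and an interaction of -3.76 ± 0.42 (adjusted p = 6.49e-05). The enzymes of retinoid handling thus did not share a direction.

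**Figure D2:**
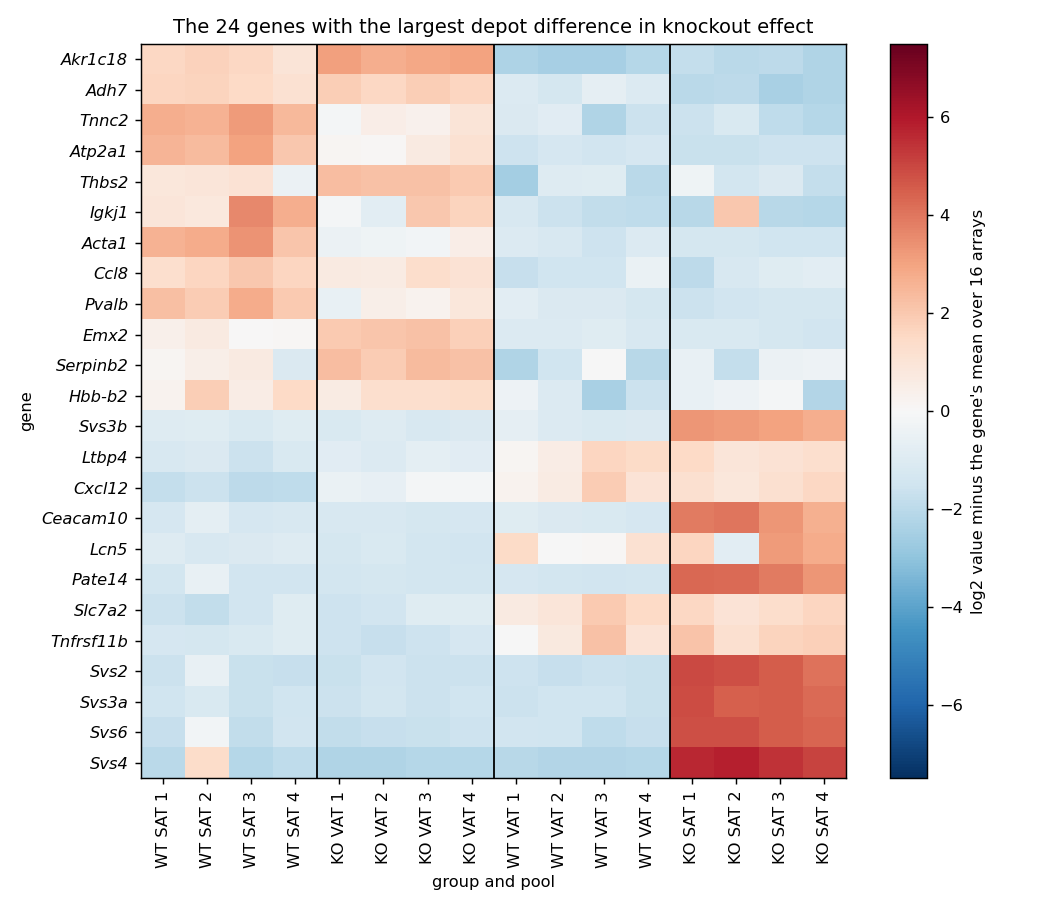
Levels of the 24 named genes with the largest interactions on each array, as log2 differences from the gene's mean over all 16 arrays (colour), with groups in the order WT SAT, KO VAT, WT VAT and KO SAT. The upper 12 genes have higher means in WT SAT and KO VAT than in WT VAT and KO SAT, and the lower 12 include the seminal vesicle genes, which are highest in KO SAT.

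Emx2, a homeobox gene of urogenital and brain development that is also expressed in some fat depots, carried the same crossing. Its levels were 6.84, 7.18, 6.53 and 6.56 in WT SAT and 5.45, 5.45, 5.59 and 5.29 in WT VAT. In knockout mice they were 5.36, 5.36, 5.19 and 5.04 in SAT and 8.47, 8.56, 8.67 and 8.28 in VAT. The 4 groups did not overlap except WT VAT with KO SAT, and the interaction was 4.59 ± 0.17 (adjusted p = 1.49e-10). Emx2 fell 2.91-fold with the knockout in SAT and rose 8.28-fold in VAT.

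Emx2 is 1 of 25 measured positional homeobox and T-box genes, of which 9 passed higher and 5 lower. Their median was 0.06, so the list as a whole had no one direction, and 10 of its members were under background in every group. Nr2f2, a nuclear receptor of mesenchymal and venous identity, had -2.13 ± 0.27 (adjusted p = 0.000191), with 5.29 in WT SAT and 6.45 in WT VAT, against 6.39 in KO SAT and 5.42 in KO VAT. Comparisons of fat depots place Shox2, Tbx15 and En1 higher in subcutaneous fat and Hoxc8 higher in visceral fat. Here Shox2 averaged 5.42 in WT SAT and 5.04 in WT VAT, against 4.89 in KO SAT and 5.47 in KO VAT, with an interaction of 0.96 ± 0.15 (adjusted p = 0.00152). Hoxc8 averaged 4.56, 5.09, 5.66 and 5.24 in that order, with -0.95 ± 0.15 (adjusted p = 0.00176). Its WT SAT mean was under background, and its call was lost without the day term (adjusted p = 0.0932). Tbx15 (0.85) and En1 (0.78), named after their values were seen, also passed higher. These depot genes were picked from a list that split in both directions, so they do not stand for it. Of 15 measured mesothelial markers, the lining cells of the visceral depot, 1 passed (6.67%, against 4.22% of all genes). It was Krt18 (-1.36 ± 0.19, adjusted p = 0.000478), and 9 members were under background in every group. Leaving out pool 2 or 4 of either SAT group, pool 3 of either VAT group or pool 4 of WT VAT gave 2 calls.

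The largest negative interaction belonged to a gene of the seminal vesicle, a male accessory gland. Svs4, a seminal vesicle secretory protein, was at 3.90, 7.30, 3.79 and 4.05 in WT SAT and at 3.88, 3.76, 3.76 and 3.78 in WT VAT. In the arrays labelled KO SAT it was at 11.59, 11.78, 11.36 and 11.04, and in KO VAT at 3.69, 3.71, 3.81 and 3.82. All 4 KO SAT arrays were far above every other array, and 1 WT SAT array, pool 2, was also above background. The interaction was -6.71 ± 0.74 (adjusted p = 4.96e-05), and its size is inexact because 3 group means were under background.

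Of the 14 measured seminal vesicle and epididymal genes, 12 passed lower and 0 higher, with a median of -4.17 against 0.02 for all genes. The mean level of the list was 7.87 to 8.31 over the KO SAT arrays and 4.17 to 4.99 over all the others. Svs2, Svs3b, Svs4, Svs3a, Svs6 and Svs5 are consecutive protein-coding genes in the RefSeq gene table, and all 6 passed. Signal of the near-identical Svs3a and Svs3b may be shared between their probe sets. Svs6 (-6.02), Svs3a (-5.95), Svs2 (-5.91), Ceacam10 (-4.69) and Svs3b (-4.18), and outside the list Pate14 (-5.14), of a family named for prostate and testis expression, also stood among the 12 most negative genes, each with its other 3 group means under background. Lcn5, an epididymal retinoid carrier, differed from them, with 4.43 in WT SAT and 6.13 in WT VAT, against 7.18 in KO SAT and 4.16 in KO VAT. Its interaction of -4.72 ± 0.82 (adjusted p = 0.00293) did not pass on day 1 alone (-3.40, adjusted p = 0.154).

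Markers of other cells moved with the interaction as well. In bulk RNA, fewer cells of a type and less RNA per cell cannot be told apart. Of 19 measured skeletal muscle contractile genes, 13 passed higher and 0 lower, with a median of 1.58. The list's mean level was 6.34 to 6.99 in the WT SAT arrays, 4.89 to 5.15 in WT VAT, 4.86 to 4.97 in KO SAT and 5.25 to 5.63 in KO VAT. Tnnc2, the calcium-binding troponin of fast muscle, fell 21.7-fold in SAT and rose 3.61-fold in VAT (interaction 6.29 ± 0.42, adjusted p = 2.13e-07). Atp2a1 (5.99), the calcium pump of fast muscle, Acta1 (5.19), skeletal actin, and Pvalb (4.95), parvalbumin, behaved alike, with levels ordered WT SAT, KO VAT, WT VAT, KO SAT.

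Of 14 measured T cell markers 7 passed higher and 0 lower (median 0.63; 0.30 on day 1 and 1.07 on day 2), and of 15 B cell markers 5 passed higher and 0 lower (median 0.47; 0.07 on day 1 and 0.83 on day 2). Icos, a costimulatory receptor of T cells, had an interaction of 3.05 ± 0.39 (adjusted p = 0.000197), and Cd3e, a subunit of the T cell receptor complex, had 2.54 ± 0.29 (adjusted p = 9.04e-05). Cd3e fell 4-fold in SAT, from 7.79 to 5.79, while in VAT it was at 6.06 in WT and 6.60 in knockout mice (adjusted p = 0.0857). Cd79a, a subunit of the B cell receptor, fell 2.71-fold in SAT, and its interaction was 1.73 ± 0.31 (adjusted p = 0.00341), with 0.75 on day 1 and 2.71 on day 2, a difference that passed limma's test (adjusted p = 0.0278). Of 13 natural killer cell markers 0 passed, and 1 had an unadjusted p under 0.05.

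Igkj1, an immunoglobulin kappa joining segment, had 5.38 ± 1.26 (adjusted p = 0.0225) but an uneven spread, with KO SAT pool 2 at 7.78 and the other KO SAT pools at 3.63 to 3.66. Its interaction was 1.82 on day 1 and 8.95 on day 2. It no longer passed without WT SAT pool 3 (4.90, adjusted p = 0.0577), without KO SAT pool 1 (5.10, 0.0556), 3 (4.92, 0.0573) or 4 (4.91, 0.0563), or without KO VAT pool 3 (5.00, 0.0568) or 4 (5.12, 0.0577).

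Erythroid genes passed higher for 3 of 6, among them the globins Hbb-b2 (4.37 ± 0.65, adjusted p = 0.000883) and Hba-a1 (4.10 ± 0.67, adjusted p = 0.00181), whose gene copies are nearly identical. The remaining call, Alas2 (0.56), was under background in all 4 groups. It was lost when any 1 of 10 arrays was left out, and without the day term (adjusted p = 0.154). Neutrophil markers passed higher for 3 of 13 and lower for none, with S100a8 at 1.30 and under background in 3 groups. Of 16 eosinophil, mast cell and basophil markers, 2 passed higher, Cma1 (1.37) and Cpa3, which was under background in all 4 groups, and 1 lower, Gata2, whose call was lost without KO VAT pool 4 (-0.61, adjusted p = 0.0507) and with the mean of its probe sets (-0.30, adjusted p = 0.288). Epithelial and keratinocyte markers passed higher for 3 of 19 (15.8%, against 4.22% of all genes): Dsp (2.97 ± 0.49), a desmosome protein, Krt5 (1.72 ± 0.35) and Krt14 (1.54 ± 0.25). The list had a median of 0.02 (-0.19 on day 1 and 0.30 on day 2), with 11 positive and 8 negative values. These 3 therefore do not stand for it. Other Dsp probe sets, with means of 3.90 and 3.65, under background, did not pass (limma over all probe sets, adjusted p = 0.126 and 0.988). Dsp was at 8.25 in KO VAT and at 4.58 to 5.71 in the other groups.

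Endothelial markers passed lower for 5 of 20 and higher for none (median -0.57), with the smallest p for Eng, a TGF-beta co-receptor (-0.93 ± 0.15, adjusted p = 0.00188). The other Eng probe set, with a mean of 6.79, did not pass (-0.63, limma over all probe sets, adjusted p = 0.0639). The median of the endothelial list was -0.91 on day 1 and 0.05 on day 2. The count of 5 became 1 when WT SAT pool 1, WT SAT pool 3 or KO SAT pool 3 was left out, 2 or 3 without pool 4 of WT SAT, pool 2 or 4 of WT VAT, pool 1, 2 or 4 of KO SAT or the same pools of KO VAT, and 2 with a random pool block. Cdh5, Tie1 and Tek were among the calls lost, and the array spread as a term gave 9. Adipocyte markers passed lower for 3 of 15, with Fabp4, a fatty acid carrier also made by macrophages, at -1.49 ± 0.27 (adjusted p = 0.0035) and Adipoq at -1.07 ± 0.23 (adjusted p = 0.0125).

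Stromal progenitor genes split, 3 higher and 7 lower of 20 (median -0.54). Sfrp2, a secreted Wnt modulator that marks subcutaneous stroma, was at 8.31 in WT SAT and 7.28 in WT VAT, against 7.39 in KO SAT and 9.69 in KO VAT (3.33 ± 0.34, adjusted p = 2.32e-05). Cxcl12, the stromal chemokine that holds CXCR4-bearing leukocytes, was at 5.77, 8.55, 8.78 and 7.23 in that order (-4.33 ± 0.33, adjusted p = 9.11e-07). Thbs2 (5.52 ± 0.56, adjusted p = 2.16e-05), a matrix thrombospondin, had the sign of Sfrp2. Tnfrsf11b (-5.36 ± 0.41, adjusted p = 1.1e-06), the decoy receptor for RANKL, and Ltbp4 (-4.24 ± 0.34, adjusted p = 1.6e-06), which binds latent TGF-beta, had the sign of Cxcl12. The part of these other cells in the macrophage results below was not tested.

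**Figure D3:**
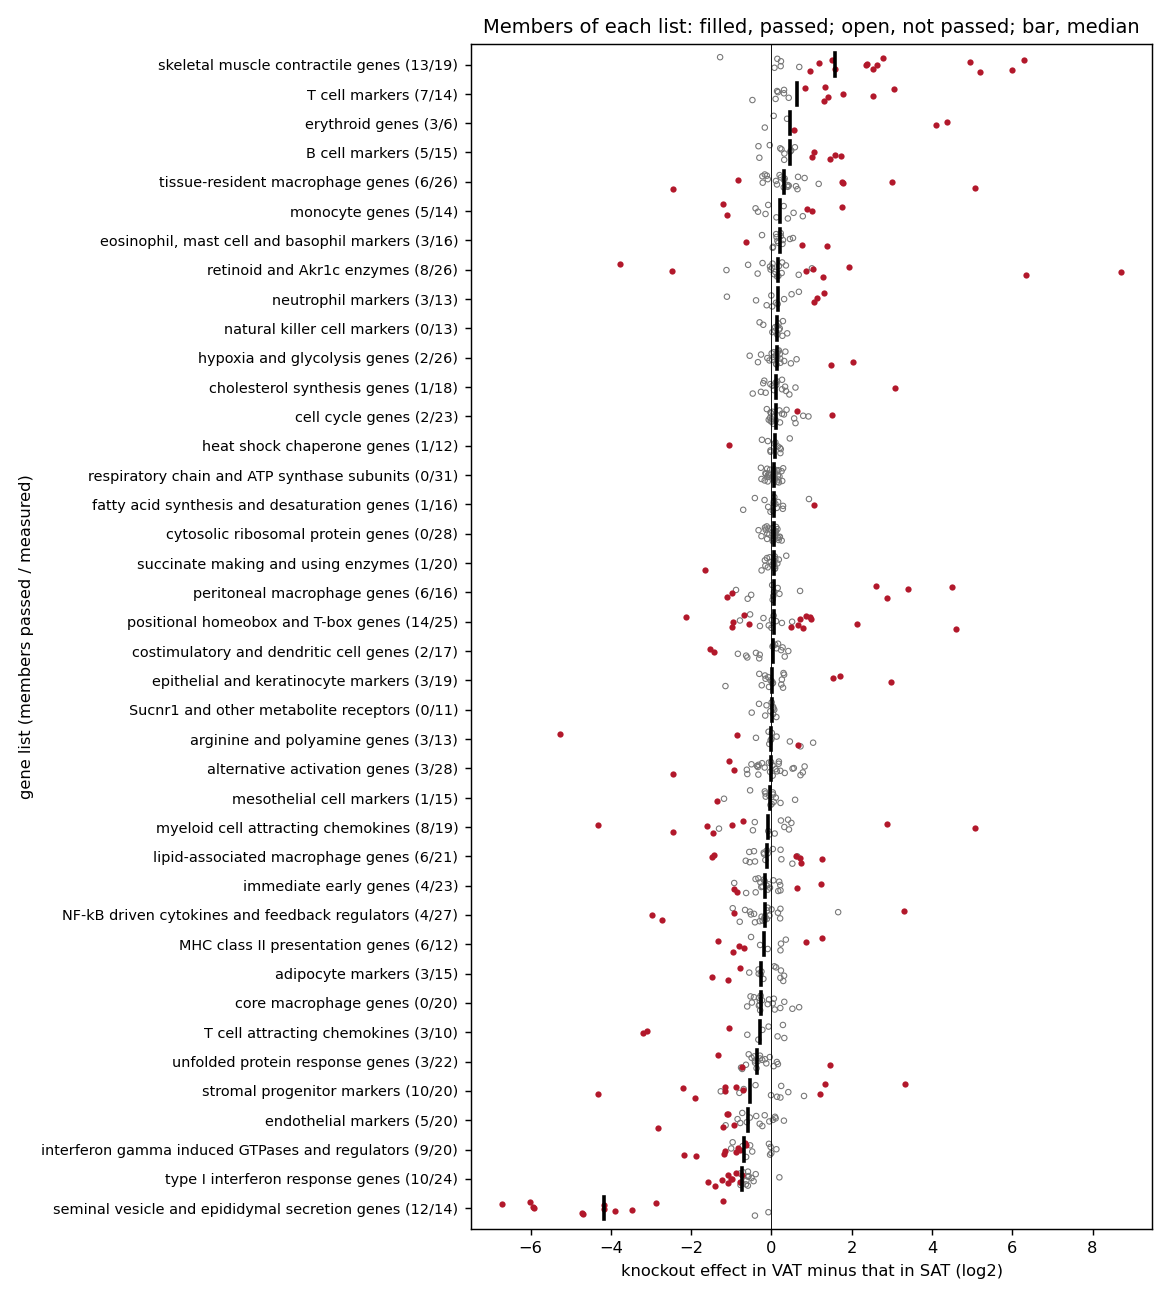
Interaction values (log2) of the measured members of each gene list (points; filled where the adjusted p was under 0.05) with the list median as a bar. Seminal vesicle genes (median -4.17) and skeletal muscle genes (median 1.58) lie farthest from 0, and the interferon lists (medians -0.73 and -0.69) lie below it.

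Genes of the other macrophage lists moved in part. Of 26 measured tissue-resident macrophage genes, 4 passed higher and 2 lower (median 0.32). Ccl8, a monocyte and lymphocyte chemokine made by resident macrophages, was at 9.25, 9.58, 9.99 and 9.58 in WT SAT and at 6.21, 6.48, 6.46 and 7.49 in WT VAT. In knockout mice it was at 6.02, 6.76, 7.04 and 7.17 in SAT and at 8.62, 8.57, 9.27 and 9.03 in VAT. The WT SAT and KO VAT arrays lay above all others, and Ccl8 fell 7.21-fold with the knockout in SAT and rose 4.63-fold in VAT (interaction 5.06 ± 0.28, adjusted p = 2.24e-08).

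Fcna, ficolin A, a lectin of the complement system, fell 6.12-fold in SAT, from 7.65 to 5.04, and was at 5.33 and 5.71 in VAT (interaction 2.99 ± 0.22, adjusted p = 8.25e-07). Folr2, the folate receptor of resident macrophages, fell 2.32-fold in SAT and rose 1.47-fold in VAT (1.77 ± 0.19, adjusted p = 3.19e-05). F13a1, coagulation factor XIII, had 1.77 ± 0.34 (adjusted p = 0.00586). Ccl24, an eosinophil-attracting chemokine, was lower, at -2.45 ± 0.50 (adjusted p = 0.00846), having risen 3.28-fold in SAT. Fcna, Folr2 and Ccl8 were each highest in the arrays labelled WT SAT.

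Peritoneal macrophage genes passed higher for 4 of 16 and lower for 2 (median 0.06). Prg4, lubricin, was at 7.41 in KO VAT and at 4.55 to 5.22 elsewhere (3.41 ± 0.32, adjusted p = 1.02e-05), and Serpinb2, plasminogen activator inhibitor 2, was at 8.70 in KO VAT and at 5.02 to 6.54 elsewhere (4.50 ± 0.65, adjusted p = 0.000629). Cxcl13, a B cell chemokine of body cavity macrophages, rose 2.74-fold in VAT and fell 2.68-fold in SAT (2.88 ± 0.25, adjusted p = 3.73e-06). Slpi, a protease inhibitor, had 2.60 ± 0.23 (adjusted p = 5.88e-06).

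Lipid-associated macrophage genes passed higher for 4 of 21, among them the cathepsins Ctsk (1.26 ± 0.19) and Ctsl (0.70 ± 0.11), and lower for 2, Fabp4 and Itgax. Itgax, which encodes CD11c, was at 5.96 in KO SAT and at 4.92 to 5.46 elsewhere (-1.44 ± 0.25, adjusted p = 0.00271). Of 14 measured monocyte genes, 3 passed higher, Plac8 (1.76), Itgal (1.02) and Ly6c1 (0.88), and 2 lower, with Vcan, versican, at -1.20 ± 0.16 (adjusted p = 0.000278). The other Itgal probe set, with a mean of 5.22, did not pass (0.07, limma over all probe sets, adjusted p = 0.901). Ly6c1 was lost without the day term (adjusted p = 0.0914).

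The title of the series names alternative activation, the programme that interleukin-4 induces in macrophages. Of its 28 measured genes, 0 passed higher and 3 lower (10.7%, against 4.22% of all genes), with a median of -0.02. Those 3 were Ccl24, Tgm2, a transglutaminase (-1.05 ± 0.16, adjusted p = 0.00102), and Egr2, a transcription factor (-0.92 ± 0.19, adjusted p = 0.0111). The other Tgm2 probe set, with a mean of 6.97, did not pass (-0.67, limma over all probe sets, adjusted p = 0.111). Egr2 was lost without the day term (adjusted p = 0.0941). The interaction of Arg1, arginase 1, was 0.72 ± 0.32 (adjusted p = 0.319), that of Mrc1, the mannose receptor, 0.83 ± 0.31 (adjusted p = 0.204), and that of Retnla, a secreted resistin-like protein, 0.18 ± 0.20 (adjusted p = 0.818). These 3 were chosen for the title and not by size, and an effect that misses the threshold may still be there.

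The interferon-induced genes that passed were all lower. Of 24 measured type I interferon response genes, 10 passed lower and 0 higher (median -0.73), and of 20 genes of the interferon gamma list, 9 passed lower and 0 higher (median -0.69), against 2.12% lower and a median of 0.02 over all genes. Without WT VAT pool 1 the counts were 21 and 15, and without any other single array at least 8 and 6. Both lists had negative medians on each day, -0.43 and -1.07 for the first and -0.52 and -0.84 for the second on days 1 and 2. The interferon-stimulated response element, bound by STAT and IRF factors, holds the letters GAAA, any 2 bases and GAAA again. The 250 bases before the gene start are shown for 4 interferon-inducible genes that passed and hold it, because they let the element be seen beside the values; capitals mark each match on either strand.
Cxcl10: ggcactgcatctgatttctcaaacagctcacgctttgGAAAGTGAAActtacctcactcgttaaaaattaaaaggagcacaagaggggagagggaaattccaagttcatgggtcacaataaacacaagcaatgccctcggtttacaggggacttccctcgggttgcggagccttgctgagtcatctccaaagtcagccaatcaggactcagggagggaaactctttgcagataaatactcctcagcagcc
Ifit3: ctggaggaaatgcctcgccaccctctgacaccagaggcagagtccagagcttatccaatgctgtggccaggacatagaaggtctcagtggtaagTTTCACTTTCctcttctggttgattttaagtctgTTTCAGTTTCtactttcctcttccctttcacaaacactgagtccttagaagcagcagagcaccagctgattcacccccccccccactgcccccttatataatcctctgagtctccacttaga
Gbp2: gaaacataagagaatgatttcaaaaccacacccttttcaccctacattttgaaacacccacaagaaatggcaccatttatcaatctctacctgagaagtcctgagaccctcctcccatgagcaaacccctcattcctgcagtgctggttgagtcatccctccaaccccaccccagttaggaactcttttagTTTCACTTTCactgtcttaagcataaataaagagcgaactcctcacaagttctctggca
Gbp3: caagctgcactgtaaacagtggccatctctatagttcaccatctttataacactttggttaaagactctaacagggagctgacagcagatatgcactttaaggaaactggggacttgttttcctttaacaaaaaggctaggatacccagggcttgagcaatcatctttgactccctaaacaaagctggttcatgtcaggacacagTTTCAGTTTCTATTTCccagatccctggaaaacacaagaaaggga

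These bases are from RefSeq on GRCm38.p6, written 5′ to 3′ on the strand of the gene. Cxcl10 lies at chr5:92348890-92349139 on the minus strand, with its match starting 213 bases before the gene start. Ifit3 lies at chr19:34583279-34583528 on the plus strand, with matches 156 and 122 bases before, and Gbp2 at chr3:142620413-142620662 on the plus strand, with 1 match 59 bases before. Gbp3 lies at chr3:142559794-142560043 on the plus strand, with overlapping matches 45 and 39 bases before. Both strands were searched for the letters. They occurred in 5 of the 16 type I list promoters found in the table (31.2%) and 8 of the 16 of the interferon gamma list (50%), against 936 of 27025 genes (3.46%). Among members that passed the interaction they occurred in 3 of 6 and in 4 of 8, shares to be read beside those of the whole lists.

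Cxcl10, a chemokine that draws CXCR3-bearing T cells, was at 7.87, 7.86, 8.28 and 8.14 in WT SAT and at 9.22, 9.32, 10.36 and 10.34 in WT VAT. In knockout mice it was at 9.98, 9.84, 10.31 and 10.25 in SAT and at 8.66, 8.37, 9.14 and 8.86 in VAT. All WT SAT and KO VAT arrays were below all WT VAT and KO SAT arrays. Cxcl10 rose 4.16-fold with the knockout in SAT and fell 2.07-fold in VAT (interaction -3.11 ± 0.19, adjusted p = 9.29e-08).

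Gbp2 and Gbp3, interferon-induced GTPases that act on intracellular microbes, rose in SAT and did not pass in VAT. The rise was 3.53-fold for Gbp2, from 6.86 to 8.68, and 4.18-fold for Gbp3, from 4.88 to 6.95. In VAT Gbp2 was at 7.89 and 7.84 and Gbp3 at 6.26 and 6.15, and the interactions were -1.87 ± 0.23 (adjusted p = 0.000167) and -2.17 ± 0.31 (adjusted p = 0.000676). Gbp7, next to Gbp3 in the gene table, also passed lower, and Gbp2b, between Gbp3 and Gbp2, did not pass. Irf1, an interferon-induced transcription factor, had -0.79 ± 0.14 (adjusted p = 0.00341), and Irgm2, an immunity-related GTPase, -0.83 ± 0.15 (adjusted p = 0.00299).

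Of the type I list, Cmpk2, a mitochondrial nucleotide kinase, rose 1.59-fold in SAT and fell 1.67-fold in VAT (-1.40 ± 0.23, adjusted p = 0.00177). Parp14, an ADP-ribosyltransferase, had -1.08 ± 0.13 (adjusted p = 0.000119). Ifit3, which binds viral RNA complexes, had -0.78 ± 0.11 (adjusted p = 0.000489), with levels of 11.13, 11.50, 11.66 and 11.26 in WT SAT, WT VAT, KO SAT and KO VAT. Rsad2, viperin, had -0.74 ± 0.12 (adjusted p = 0.00177). The differences of Ifit3 and Rsad2 were under 1 unit at high levels.

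**Figure D4:**
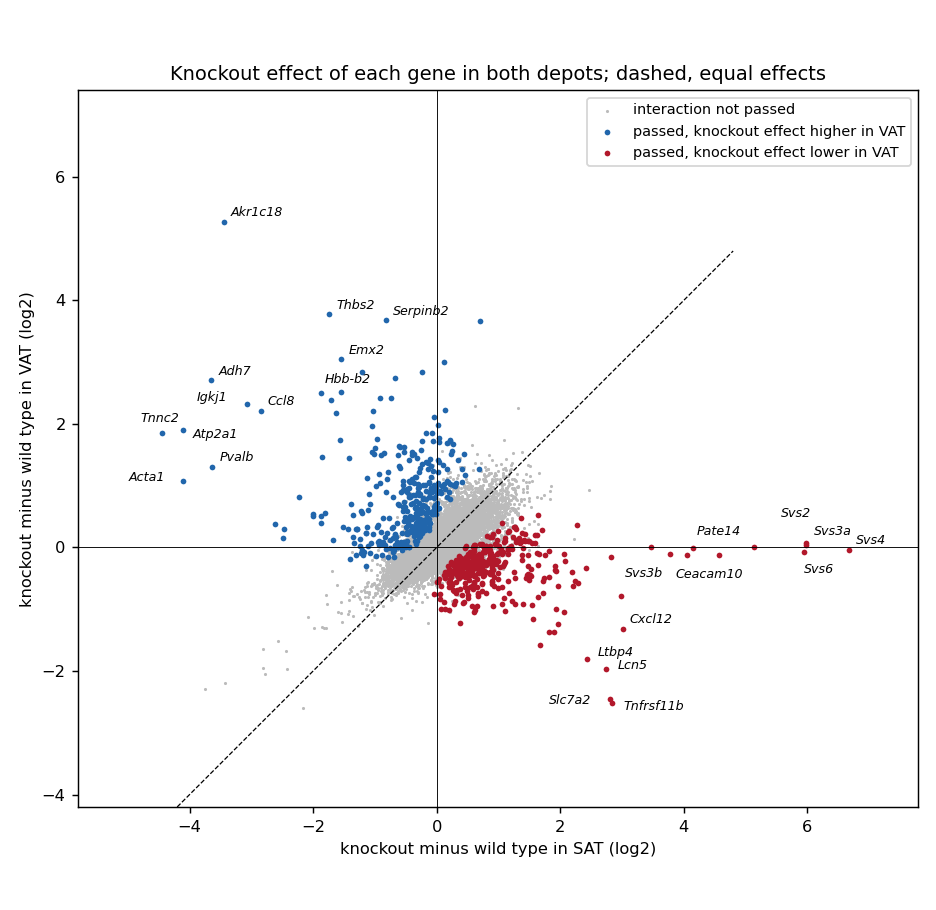
Knockout difference in SAT (x axis, log2, KO SAT minus WT SAT) against that in VAT (y axis, log2, KO VAT minus WT VAT) for every gene (grey) and for the 722 genes that passed the interaction (coloured by sign), with the genes of largest interaction named. Genes on the diagonal would have equal effects; Akr1c18 lies at -3.45 and 5.27, and the seminal vesicle genes lie near 0 on the y axis.

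Of 10 measured chemokines for T cells, 3 passed lower and 0 higher, Cxcl10 among them. Ccl5 (RANTES) rose 3.91-fold in SAT and fell 2.37-fold in VAT (-3.21 ± 0.24, adjusted p = 9.8e-07), and Cxcl16, the ligand of CXCR6, had -1.05 ± 0.13 (adjusted p = 0.000168). The T cell markers above thus had interactions of the opposite sign to these chemokines. Of 19 chemokines for myeloid cells, 2 passed higher, Ccl8 and Cxcl13, and 6 lower, among them Cx3cl1, fractalkine (-1.59 ± 0.15, adjusted p = 8.76e-06). The other Cx3cl1 probe set, with a mean of 5.44, did not pass (-0.34, limma over all probe sets, adjusted p = 0.245).

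Of 27 NF-kB driven genes, 3 passed lower and 1 higher (median -0.17). Il6 rose 7.06-fold in SAT, from 5.55 to 8.37, and was at 7.21 and 7.06 in VAT (-2.97 ± 0.43, adjusted p = 0.000631), while Icam1, a leukocyte adhesion molecule, rose 2.95-fold in SAT and fell 2.23-fold in VAT (-2.72 ± 0.29, adjusted p = 4.45e-05). Saa3, an acute phase protein, went the other way, falling 3.6-fold in SAT and rising 2.75-fold in VAT (3.31 ± 0.45, adjusted p = 0.000356).

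Antigen presentation genes split. Of 12 MHC class II genes, 4 passed lower and 2 higher (median -0.19, with -0.33 on day 1 and 0.05 on day 2). H2-Eb1, a class II beta chain, rose 1.36-fold in SAT and fell 1.85-fold in VAT (-1.34 ± 0.19, adjusted p = 0.000489). Cd74, the invariant chain, had -0.96 ± 0.18 (adjusted p = 0.00568) and H2-Ab1 -0.80 ± 0.15 (adjusted p = 0.00549), whereas H2-DMb2, a peptide exchange subunit most abundant in B cells, had 0.85 ± 0.17 (adjusted p = 0.00915). The size for H2-DMb2 depended on the probe set. Its other probe set, with a mean of 6.39 against 6.87, had 3.78 (limma over all probe sets, adjusted p = 1.01e-05). Of 17 costimulatory and dendritic cell genes 2 passed (11.8%, against 4.22% of all genes), both lower: Fscn1, the actin bundler fascin (-1.53 ± 0.21), and Cd86 (-1.44 ± 0.26). The list had a median of 0.03, with 9 positive and 8 negative values, so these 2 do not stand for it. Other Fscn1 probe sets, with means of 8.68 and 7.31, passed lower. That with a mean of 6.35 did not pass (0.05, limma over all probe sets, adjusted p = 0.955). Without the day term Cd86 did not pass (adjusted p = 0.0534).

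The largest interaction among the arginine and polyamine genes was that of Slc7a2, the cationic amino acid transporter that supplies macrophages with arginine. Its levels were 6.05, 5.81, 6.22 and 6.72 in WT SAT and 8.32, 8.52, 9.60 and 9.15 in WT VAT. In knockout mice they were 9.17, 8.64, 8.96 and 9.25 in SAT and 6.11, 6.20, 6.75 and 6.72 in VAT. WT SAT and KO VAT overlapped each other, as did WT VAT and KO SAT, with a clear gap between the pairs. Slc7a2 rose 7-fold in SAT and fell 5.48-fold in VAT (-5.26 ± 0.24, adjusted p = 2.4e-09), while the 13 measured arginine and polyamine genes had a median of 0.00, with 2 lower and 1 higher. The other 2 calls were lost with the fixed pool block, at -0.86 (adjusted p = 0.0649) for Slc7a1 and 0.66 (adjusted p = 0.0729) for Arg2, which left Slc7a2 alone. Slc7a1 was also lost when any 1 of 12 arrays was left out (all but WT SAT pool 2, WT VAT pool 1, KO SAT pool 3 and KO VAT pool 2), and Arg2 when any 1 of 13 was (all but WT VAT pools 1 and 2 and KO VAT pool 2).

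Of 20 enzymes that make or use succinate 1 passed (5%, against 4.22% of all genes). It was Acod1, which makes itaconate, an inhibitor of succinate dehydrogenase (-1.65 ± 0.27, adjusted p = 0.00184). It rose 2.38-fold in SAT and was at 7.46 and 7.06 in VAT. Of 11 measured Sucnr1 and other metabolite receptor genes, 0 passed; the one of smallest p, Gpr35, had -0.49 ± 0.28 (adjusted p = 0.514). None of the 31 respiratory chain and ATP synthase subunits or of the 28 cytosolic ribosomal protein genes passed, with medians of 0.07 and 0.06. By limma 0 genes of these lists or of the metabolite receptors had an unadjusted p under 0.05.

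Of the cholesterol, fatty acid, and hypoxia and glycolysis lists, 5.56%, 6.25% and 7.69% of members passed, against 4.22% of all genes. The genes that passed do not stand for their lists. Idi1, an isomerase of the cholesterol pathway, was at 7.14 in KO VAT and at 4.30 to 4.58 in the other groups, all under background (3.08 ± 0.26, adjusted p = 3.2e-06), and it was the only one of 18 cholesterol synthesis genes to pass. Of 16 fatty acid synthesis and desaturation genes, 1 passed higher, Elovl6, a fatty acid elongase (1.06 ± 0.27, adjusted p = 0.037). Its call was lost when any 1 of 11 arrays was left out (all but WT SAT pool 4, WT VAT pools 1, 3 and 4 and KO SAT pool 1; adjusted p from 0.0566 to 0.0896), with either pool block, without the day term and with arrays centred on medians. Of 26 hypoxia and glycolysis genes, 2 passed, both higher: Egln3, a prolyl hydroxylase that marks HIF targets (2.04 ± 0.23, adjusted p = 5.5e-05), and Adm, adrenomedullin (1.50 ± 0.28, adjusted p = 0.00467).

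The share called in the stress and growth lists was 17.4% for immediate early, 13.6% for unfolded protein response, 8.33% for heat shock and 8.70% for cell cycle genes, against 4.22% of all genes. Immediate early genes, which cell isolation can induce, passed higher for 2 of 23, among them Jun (1.23 ± 0.24), and lower for 2. The call of Jun was lost with the mean of its probe sets (0.81, adjusted p = 0.076) and without the day term (adjusted p = 0.066). Unfolded protein response genes passed higher for 1 of 22, Creld2 (1.47 ± 0.20), and lower for 2, among them Trib3 (-1.33 ± 0.21), and that list's median was 0.06 on day 1 and -0.82 on day 2. Heat shock genes passed lower for 1 of 12, Hspa1b (-1.05 ± 0.23). Of 23 cell cycle genes 2 passed higher, Mcm5 (1.51 ± 0.28), a subunit of the replicative helicase, and Rrm2 (0.64 ± 0.14).

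The count of 722 moved with the treatment of the arrays, and the split between higher and lower moved with it. With each array's spread of values as a term, 1694 genes passed, 1085 higher and 609 lower, against 359 and 363. Without WT VAT pool 1, 1310 passed, 491 higher and 819 lower. Without that array more members also passed in the NF-kB (8), unfolded protein response (9), hypoxia and glycolysis (5), costimulatory (4), neutrophil (5) and eosinophil, mast cell and basophil (5) lists. Cell cycle genes passed for 4 without WT VAT pool 1 or 3, alternative activation genes for 5 without WT VAT pool 4, and cholesterol genes for 2 without WT VAT pool 4 or KO SAT pool 2. On day 1 alone 71.2% of the genes that passed were higher, and on day 2 alone 38.7%. Beside Cd79a and Igkj1, the size of the interaction passed the test between days for Cxcl13 (2.31 and 3.44), Itgal (0.43 and 1.61), Idi1 (2.59 and 3.56) and Il6 (-2.11 and -3.83, adjusted p = 0.0496). Within the 24 genes of largest size, 13 other probe sets of the same genes were measured: 13 had the same sign and 11 passed with it.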

How the data were processed

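RNA of adipose tissue macrophages was measured on 16 Affymetrix mouse arrays. The authors deposited log2 values per probe set, made with RMA in the affy package per the submitters' processing notes. RMA corrects background, normalizes between arrays and summarizes probes, and it compresses small signals. The deposited arrays still differed in spread. Their interquartile ranges were 2.12 to 2.29 in WT SAT and 2.37 to 2.63 in KO SAT, which did not overlap. In WT VAT they were 2.01 to 2.54, and in KO VAT 2.36 to 2.62. Versions and raw signals were not used here. Of 45141 probe sets, 104 were controls, 28898 had 1 gene in the platform table, 551 several and 15588 none. Each of the 17097 genes was read from its probe set of highest mean (7180 genes had several).

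limma 3.58.1 in R 4.3.3 (lmFit, eBayes, two-sided) was fitted to all 16 arrays with group means and day as a term, leaving 11 residual degrees of freedom, and p-values were adjusted over all genes. The method was tested on simulated data. Arrays carry no counts, so their number limits the precision. Array spread is the interquartile range of an array's values.

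The genes named are the 12 largest positive and 12 largest negative interactions among genes that passed and kept their sign from day to day, for each of 40 lists the members of smallest p (at most 4), of which only members that passed are named where any did, and Sucnr1 and Lyz2. Unnamed gene models were left out. Of 805 genes written in the lists, 709 were measured, 12 of them through older symbols. The members and lists were chosen with earlier results of these data known. Pool numbers were checked for pairing within a day: the correlation of pool differences between groups ran from -0.308 to 0.375 and was over 0.1 in 3 of 12 pairs. On day 1 it was 0.375 between the depots of WT and 0.338 between those of knockout mice, and on day 2 -0.023 and -0.0072. Whether the depots of a pool came from the same mice is not given, so the pool number was not used as a pairing in the main comparison but as an alternative. Promoter sequences were matched by symbol.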

Additional observations from a re-analysis of the deposited data

Results flagged for a closer look

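The knockout effect differed between the depots for 722 genes, by the interaction test itself. The interaction differed in turn between the days for 618 genes by limma's test of that difference, 28 of them among the 722, and 3 to 3858 genes when 1 array was left out (3 without KO SAT pool 3, 3858 without WT VAT pool 2). Among 16139 probe sets without a single gene name, which the gene comparisons did not use, 398 passed the interaction (2.47%).

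Among the 24 genes of largest size, Sucnr1, Lyz2 and the array spreads, 9 of 108 groups of 4 arrays held 1 array far from the rest. Chance gives about 1 in 20 for independent groups, but these groups share arrays. WT SAT pool 2 was high for Svs4 (7.30, next 4.05), Svs2 (4.65, next 3.62), Pate14 (4.30, next 3.52) and Ceacam10 (4.35, next 3.88). WT SAT pool 4 was low for Thbs2 (7.78, next 9.09). KO SAT pool 2 was high for Igkj1 (7.78, next 3.66) and low for Serpinb2 (4.71, next 5.96). KO VAT pool 1 was low for Hbb-b2 (8.27, next 8.88), and WT VAT pool 1 was high for Svs4 by little (3.88, next 3.78), under background.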

How the results depend on the processing

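Every alternative kept the sign of the 722 interactions (597 where the lowest 40% of genes were left out), and leaving out 1 array kept 537 to 717 of the calls. For the 24 genes of largest size, 686 of 694 values passed with the same direction and 0 reversed. The other 8 values belong to Igkj1 and Lcn5. The 722 genes were chosen for passing on these same arrays, and the 24 also for keeping their sign on both days. Both choices favour kept signs and calls, so these counts are a description only. Of 114 named genes that passed, 13 lost the call without some array (Igkj1, Cdh5, Tie1, Tek, Retn, Gata2, Alas2, Nfkbie, Egr3, Calr, Elovl6, Slc7a1 and Arg2; adjusted p at most 0.0994), 20 without the day term, 48 on day 1 alone and 10 on day 2 alone. Array signal limits genes near background.

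With the replicate block, pool number as a fixed term, 618 genes passed the interaction (608 of the 722), and 631 with it as a random effect; the block moved no count of a comparison by over 1.5 times, and 4 named genes lost their call under the first and 6 under the second.

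In the order interaction, knockout effect in SAT, in VAT, depot difference in WT, in knockout and averaged, the counts were 722, 6279, 2724, 486, 738 and 503. Without the day term they were 455, 3563, 986, 212, 422 and 169, and on day 1 alone 330, 582, 5376, 199, 262 and 167. On day 2 alone the counts that moved were 1904 for the interaction, 331 in VAT, and 4222, 199 and 984 for the depot differences. With array spread as a term the interaction count was 1694 (64.0% higher against 49.7%), that in SAT 1308, and the depot counts 1502, 1968 and 1701. Array weights gave 1209 for the interaction, and 2203 and 1160 for the depot difference in knockout and averaged. Quantile normalization gave depot counts of 1148, 1111 and 1139, centring on medians gave 315 in WT and 306 averaged, and leaving out the lowest 40% gave 4047 in SAT. For the interaction differing between days the count of 618 became 310 with the mean of all probe sets, 194 with quantile normalization and 47 with array weights.

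Leaving out WT VAT pools 1 and 2, an alternative chosen after seeing the data, gave 2797 for the interaction (39.0% higher), 922 in VAT, and 4348, 1262 and 3085 for the depot differences. Leaving out 1 array gave 546 (without KO VAT pool 4) to 1310 (without WT VAT pool 1) for the interaction, 3071 (WT SAT pool 4) to 7960 (WT VAT pool 1) in SAT, and 1115 (KO VAT pool 1) to 4007 (WT VAT pool 4) in VAT. The depot difference gave 231 (WT VAT pool 3) to 1711 (WT VAT pool 1) in WT, 461 (KO SAT pool 2) to 1054 (WT VAT pool 1) in knockout and 263 (KO SAT pool 2) to 1297 (WT VAT pool 1) averaged. The interaction differing between days gave 3 to 3858.

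Signs turned only for interactions that did not pass. Sucnr1 was at -0.071 on day 1, -0.011 centred, -0.015 with quantile normalization, -0.014 with array spread, and -0.034 to 0.031 without 1 array. Lyz2 was at -0.21 on day 1 and -0.059 to 0.16 without 1 array, Gpr35 at 0.18 and Retnla at -0.030 on day 1, and Ndufs1 at -9.36e-05 on day 2. The cause of these shifts was not tested.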
